A study of Mus musculus with 16 samples.

Results

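Grem1, Nog, Chrd, Chrdl1, Chrdl2, Bmper, Twsg1, Fst and Fstl3 encode secreted proteins that bind bone morphogenetic proteins (BMPs) or activins outside the cell. These 9 genes were chosen by name, as the antagonist genes of both ligand families, from the 55228 gene symbols of the count table. All 9 passed the filter on low counts and were among the 18254 genes tested. RNA was sequenced from the mesenchyme, the tissue layer outside the epithelium, of lower urinary tracts of untreated wild-type embryos of the outbred CD-1 mouse stock at embryonic day 16.5. There were 4 groups with 4 libraries each, namely the bladder and the pelvic urethra of females and of males. Each of 4 litters gave 1 library to each group, made from the pooled embryos of 1 sex, and the replicate number names the litter. The stated purpose of the study was to find genes that mark the bladder or the urethra, and because pools were kept apart by sex, the sexes can be compared within a tissue.

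BMPs and activins are ligands of the TGF-beta family that gather type I and type II receptor kinases and signal through SMAD proteins. Antagonists set how much ligand reaches the receptors: noggin, gremlin 1, chordin and the chordin-like proteins bind BMPs, while follistatin and follistatin-like 3 bind activins most tightly. Chordin is cut by tolloid proteases, which frees its ligand, and twisted gastrulation binds both chordin and BMPs and can favour either outcome. In the developing kidney, gremlin 1 lowers BMP4 activity so that the ureteric bud can grow out of the nephric duct.

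Library totals ran from 18577097 to 22293812 counts in the bladder and from 24447435 to 29698009 in the urethra (n = 8 each), so tissue and depth went together. Sample numbers in the file headers are lower for every male library than for any female library, so sex and sample number also went together. What these numbers stand for is not stated, and an effect of that order cannot be told apart from sex. Levels are given as CPM, counts per 1000000 of a library's TMM-scaled total, and differences on a log2 scale. All 7 mesenchyme markers were detected in every group, and they summed to 15336 to 19491 CPM in the bladder and 9371 to 11668 in the urethra. They differed in direction: mean Col1a1 was 5811 and 5762 CPM in female and male bladder and 2641 and 2548 in female and male urethra, while Pdgfra was 141 and 119 against 647 and 549. Markers of particular cell types, within this layer or beside it, were also detected in all groups. The 10 smooth muscle markers summed to 12578 to 16159 CPM in the bladder and 1499 to 1955 in the urethra. The 8 neuron markers summed to 37.1 to 351 CPM in the bladder and 1296 to 2132 in the urethra, and the 18 epithelium markers to 2208 to 5453 and 747 to 2622. Mesothelium markers (6) summed to 470 to 935 CPM in the bladder and 110 to 147 in the urethra, and endothelium markers (6) to 222 to 383 and 428 to 576. Lower sums that were also higher in the urethra without overlap were those of 10 skeletal muscle (50.6 to 91.1 against 122 to 223 CPM), 6 glia (27.8 to 48.9 against 121 to 172), 7 cartilage and bone (24.7 to 35.7 against 45.6 to 68.8) and 5 genital duct markers (2.26 to 18.9 against 31.6 to 68.0). No marker of these lists was at 0 in any group. Some members went against the sum of their list. Of the skeletal muscle markers, mean Tnnt3 was 37.4 and 47.3 CPM in female and male bladder and 8.17 and 9.27 in female and male urethra. Myh8 was 28.1 and 31.5 against 11.6 and 14.6. Ibsp of the bone markers was 9.07 and 7.70 against 0.216 and 2.13. Of the epithelium markers, Krt5 was 178 and 252 against 267 and 343, and Krt14 11.3 and 14.7 against 40.8 and 47.8. Epcam was 78.9 and 105 against 93.0 and 135. Grhl2 (16.6 and 23.7 against 21.4 and 31.9) and Elf3 (27.6 and 42.5 against 29.8 and 52.5) also went against the epithelium sum. The epithelium level was used as a covariate in an alternative fit, in which 7 of the 8 antagonist genes called between tissues kept their call and Twsg1 lost it. The part of the other cell types in the tissue differences of the antagonist genes was not tested. In bulk tissue, fewer cells of a type and less RNA per cell cannot be told apart.

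The loci lie on 9 chromosomes (GRCm38). Grem1 occupies chr2:113746164-113758646 and Nog chr11:89300638-89302332, both on the minus strand. Chrd (chr16:20733127-20742384) and Chrdl2 (chr7:100006172-100034728) lie on the plus strand, and Chrdl1 (chrX:143285674-143394262) on the minus strand. Bmper (chr9:23223076-23485200) and Fstl3 (chr10:79777272-79782630) are plus-strand genes, whereas Twsg1 (chr17:65921972-65951226) and Fst (chr13:114452290-114458951) are on the minus strand. Chrd overlaps Thpo, Fst overlaps Gm47040 and Fstl3 overlaps Prss57 on the opposite strand. The counts were made by strand, per the file headers.

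The 250 bases before the RefSeq start (GRCm38.p6) are shown for Grem1 (chr2:113758649-113758898, minus strand), Chrd (chr16:20732877-20733126, plus strand) and Bmper (chr9:23222826-23223075, plus strand). They were chosen because Grem1 had the largest tissue difference of the 9 genes, Chrd shares with it a GC-rich SMAD motif, and Bmper differed between tissues in opposite directions in the 2 sexes. Each sequence runs 5′ to 3′ on the gene's own strand, and capitals mark the motif GGCGCC.
Grem1: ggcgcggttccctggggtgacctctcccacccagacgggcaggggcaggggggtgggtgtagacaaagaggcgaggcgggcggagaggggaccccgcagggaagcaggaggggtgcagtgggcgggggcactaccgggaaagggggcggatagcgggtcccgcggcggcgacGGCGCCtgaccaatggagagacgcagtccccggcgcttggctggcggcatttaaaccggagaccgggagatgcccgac
Chrd: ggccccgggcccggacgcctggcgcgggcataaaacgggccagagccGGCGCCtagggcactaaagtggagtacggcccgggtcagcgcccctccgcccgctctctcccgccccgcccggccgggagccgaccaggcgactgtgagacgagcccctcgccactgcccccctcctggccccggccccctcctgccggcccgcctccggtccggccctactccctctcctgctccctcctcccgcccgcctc
Bmper: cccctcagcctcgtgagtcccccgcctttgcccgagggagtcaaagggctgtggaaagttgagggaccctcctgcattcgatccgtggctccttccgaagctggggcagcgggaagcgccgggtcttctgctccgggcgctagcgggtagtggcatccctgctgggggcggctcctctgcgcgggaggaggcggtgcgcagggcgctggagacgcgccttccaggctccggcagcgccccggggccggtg

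Of the 9 genes, 5 had a window in the promoter table: these 3, Fstl3 and Twsg1. GGCGCC, searched on both strands, stood 78 bases before the start of Grem1 and 203 before that of Chrd, and 9.586% of the 32851 promoter windows of this length hold it. The GC box GGGCGG was present in all 5 (32.742% of windows) and the TATA box TATAAA in Fstl3 only (12.368%). No match was found in the 5 windows for the SMAD palindrome GTCTAGAC (0.167% of windows), the full oestrogen response element palindrome (0.064%) or the full androgen response element (0.009%). The 5 windows were GC-rich, at 64.4 to 78.0% G and C against a median of 52.4% over all windows. A match describes the letters and is not a binding site.

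Comparison of the urethra with the bladder asked which antagonist genes mark a compartment. Grem1, Nog, Chrdl1, Fst, Chrd and Twsg1 were higher in urethral mesenchyme, Chrdl2 and Fstl3 were higher in bladder mesenchyme, and Bmper did not pass the test as a mean of both sexes. With edgeR's quasi-likelihood test (adjusted p under 0.05 over all genes), 8 of the 9 genes passed, against 75% of all genes tested. The 6 higher genes stand beside 36.5% of all genes called higher, and the 2 lower genes beside 38.5% called lower. Among all called genes 48.7% were higher in the urethra, and 60.8% when libraries were scaled by their totals alone. The median log2 difference of the 9 genes was 1.08, against −0.03 over all genes. A difference of at least 2-fold passed the test for 6 of the 9 genes and for 22% of all genes. The libraries of the 2 tissues did not overlap for 7 of the 9 genes and for 42.3% of all genes, the exceptions being Bmper and Twsg1. The same litters gave both tissues, so n counts libraries, not independent litters. Where 2 groups do not overlap, every pair drawn from them goes the same way by necessity, so pair counts add no support there.

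**Figure D1:**
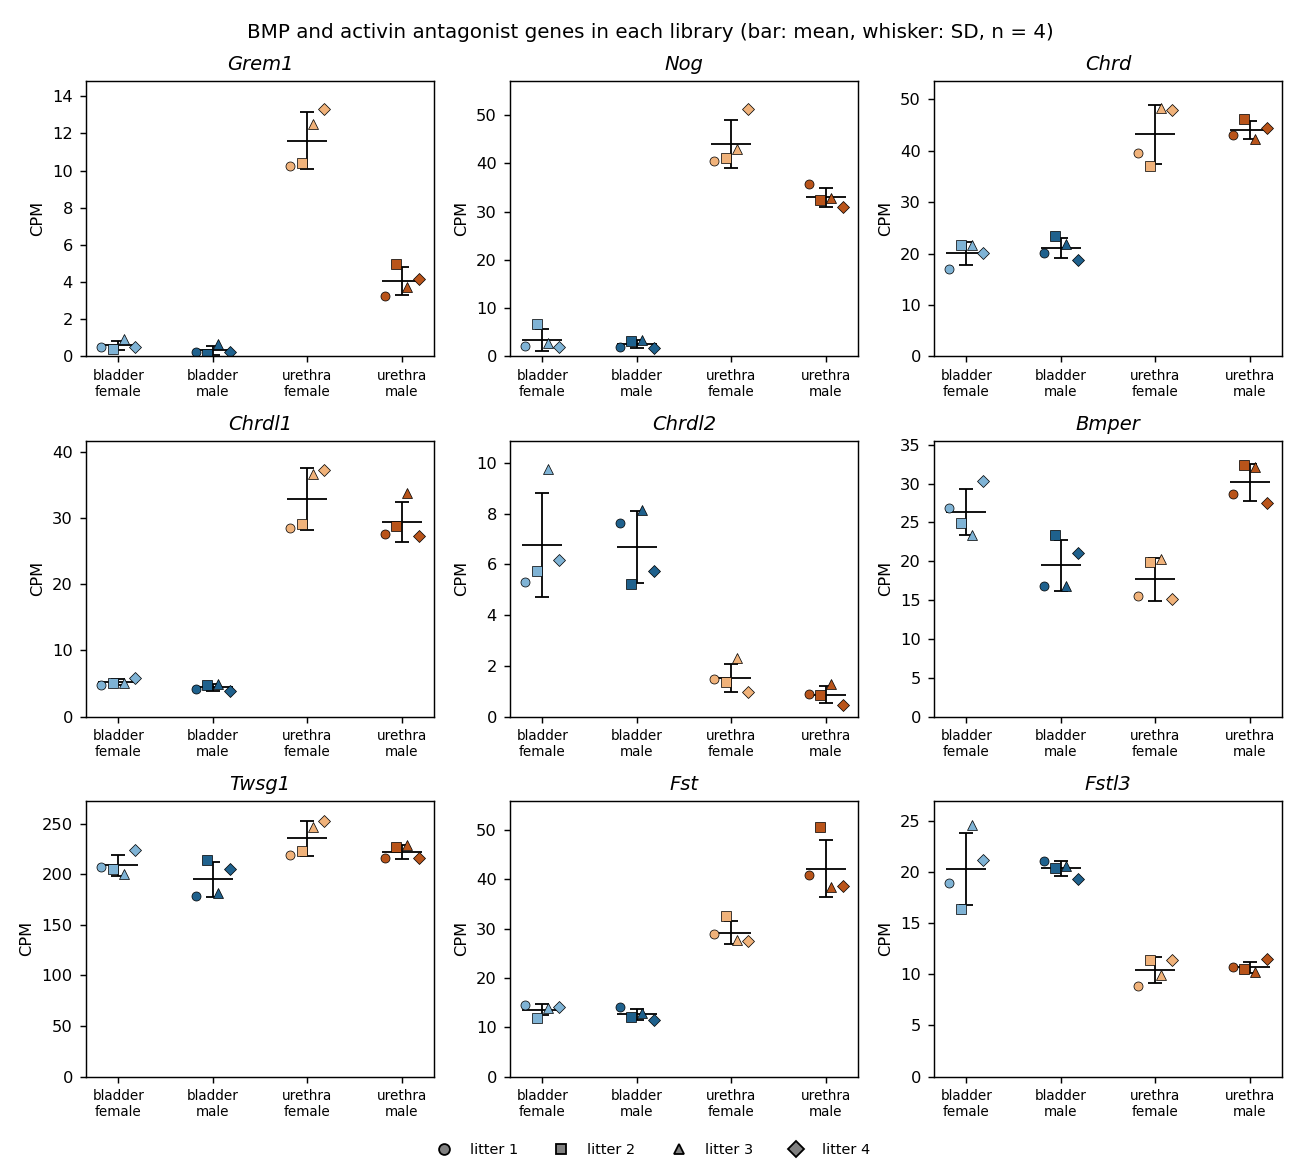
CPM (y axis, linear, from 0) of each of the 9 antagonist genes in every library, by group (x axis), with 1 symbol per litter, a bar at the mean and a whisker of 1 SD (n = 4). Grem1, Nog, Chrd, Chrdl1 and Fst lie higher in all 8 urethra libraries than in any bladder library, Chrdl2 and Fstl3 lie lower, and Bmper is higher in female than in male bladder on average but lower in female than in male urethra.

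Grem1, the gene of the DAN-family BMP antagonist gremlin 1, was barely detected in the bladder. It stood at 0.503, 0.398, 0.962 and 0.531 CPM in female bladder litters 1 to 4 and at 0.251, 0.146, 0.694 and 0.215 CPM in male bladder, from 3 to 19 counts per library. In the urethra it reached 10.2, 10.4, 12.5 and 13.3 CPM in females and 3.24, 5.0, 3.76 and 4.18 CPM in males. Every urethra library thus exceeded every bladder library. The log2 difference between the tissues was 3.92 ± 0.21 (SE, n = 8 libraries per tissue), a 15.1-fold difference (adjusted p = 4.55e-11, higher in 8 of 8 pairs of 1 litter and sex). Male bladder replicate 3 was the highest male bladder library, and without it the difference in males rose from 3.58 ± 0.31 to 4.33.

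Noggin, encoded by Nog, binds BMPs and covers the surfaces that touch the receptors. Its level was 2.07, 6.76, 2.73 and 2.02 CPM in female bladder, 2.06, 3.26, 3.38 and 1.67 in male bladder, 40.6, 41.2, 43.1 and 51.3 in female urethra and 35.7, 32.5, 32.9 and 30.9 in male urethra. Female bladder replicate 2 stood apart within the bladder, still far below the lowest urethra library. Urethra exceeded bladder by 3.68 ± 0.20 on the log2 scale, or 12.8-fold (adjusted p = 1.81e-10, 8 of 8 pairs). Without female bladder replicate 2 the value was 3.99. Neuron markers summed to 92.3 CPM in that library, the highest of the female bladder group (70.5 to 92.3), and to 152 and 351 CPM in male bladder replicates 2 and 3, the 2 male bladder libraries with the highest Nog. Female bladder replicate 2 also had the highest epithelium (4452 CPM), mesothelium (737), glia (40.1) and cartilage and bone (35.7) sums of its group. Its mesenchyme and smooth muscle sums were the lowest (16041 and 12578 CPM). The neuron sum of 351 CPM went with 3.38 CPM of Nog, and that of 92.3 CPM with 6.76. The part of these cell types in the bladder level of Nog was not tested.

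The genes of chordin and its relatives moved in both directions. Chrd, the gene of chordin itself, was 16.9, 21.7, 21.7 and 20.1 CPM in female bladder and 20.2, 23.4, 21.9 and 18.9 in male bladder, against 39.7, 37.0, 48.3 and 47.9 in female urethra and 43.1, 46.2, 42.3 and 44.5 in male urethra. The groups of the 2 tissues did not overlap, and the log2 difference was 1.08 ± 0.07 (adjusted p = 4.85e-10, 8 of 8 pairs). Chrdl1, the X-linked gene of chordin-like 1, differed more: it ran from 3.87 to 5.79 CPM in the 8 bladder libraries (median 4.84) and from 27.3 to 37.3 in the 8 urethra libraries (median 29.0). That is 2.69 ± 0.08 on the log2 scale, or 6.47-fold (adjusted p = 1.06e-13), and its standard error was small beside those of Grem1 and Nog. Litter by litter the urethra to bladder ratio of Chrdl1 lay between 5.70 and 7.17 in females and between 5.99 and 7.06 in males.

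Chrdl2, the gene of chordin-like 2, went the other way. Its bladder levels were 5.31, 5.74, 9.77 and 6.16 CPM in females and 7.63, 5.21, 8.15 and 5.75 in males, and its urethra levels were 1.49, 1.36, 2.29 and 0.978 CPM in females and 0.891, 0.839, 1.26 and 0.449 in males. All bladder libraries were above all urethra libraries. Chrdl2 was 5.83-fold lower in the urethra, a log2 difference of −2.54 ± 0.20 (adjusted p = 7.67e-09, lower in 8 of 8 pairs). Litter 3 gave the highest value in each of the 4 groups.

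The activin-binding antagonists also split. Fst, the gene of follistatin, which wraps around activin and keeps it from both receptor types, was 14.5, 11.9, 13.9 and 14.1 CPM in female bladder, 14.2, 12.1, 12.8 and 11.5 in male bladder, 28.8, 32.7, 27.8 and 27.6 in female urethra and 40.9, 50.8, 38.5 and 38.6 in male urethra. All urethra libraries lay above the bladder, by 1.42 ± 0.07 on the log2 scale (adjusted p = 2.59e-11, 8 of 8 pairs). Fstl3, the gene of follistatin-like 3, a secreted relative of follistatin, was lower in the urethra: 19, 16.4, 24.6 and 21.2 CPM in female bladder and 21.1, 20.4, 20.6 and 19.3 in male bladder, against 8.83, 11.4, 9.90 and 11.4 in female urethra and 10.7, 10.5, 10.2 and 11.5 in male urethra. The tissues did not overlap, and Fstl3 fell by 0.95 ± 0.08 on the log2 scale (adjusted p = 1.08e-08, lower in 8 of 8 pairs).

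Twsg1, the gene of twisted gastrulation, was abundant in all groups and differed least among the called genes. It ran from 178 to 224 CPM in the 8 bladder libraries (median 205) and from 216 to 253 in the 8 urethra libraries (median 225), so the tissues overlapped. The difference was 0.18 ± 0.05 on the log2 scale, or 1.13-fold, with adjusted p = 0.00247 and the urethra higher in 8 of 8 pairs. With the mean level of the epithelium markers as a covariate it was 0.09 (adjusted p = 0.23), and the call was also lost in females (0.08, adjusted p = 0.427) and in males (0.11, adjusted p = 0.248). In females it was lost as well without female urethra replicate 3 (adjusted p = 0.0839), replicate 4 (0.0977) or both (0.358), and in males without male urethra replicate 3 (0.055).

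Bmper encodes a secreted protein with chordin-type cysteine-rich repeats that binds BMPs and is known both to block and to promote their signalling. In female bladder it was 26.9, 24.9, 23.3 and 30.3 CPM and in female urethra 15.5, 19.9, 20.3 and 15.1 CPM. In male bladder it was 16.8, 23.4, 16.8 and 21.1 CPM and in male urethra 28.6, 32.3, 32.1 and 27.6 CPM. The tissues did not overlap in either sex, but females were higher in the bladder and males in the urethra. The urethra minus bladder log2 difference was −0.58 ± 0.13 in females (adjusted p = 0.000748, lower in 4 of 4 litters) and 0.63 ± 0.13 in males (adjusted p = 0.000345, higher in 4 of 4 litters). The mean of both sexes was 0.03 ± 0.09 (adjusted p = 0.791, 95% interval −0.16 to 0.22).

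Within each sex all 9 genes passed the tissue test, Twsg1 only without the epithelium covariate, with 6 rising and 3 falling from bladder to urethra in females, and 7 and 2 in males. Libraries of the tissues did not overlap for 8 genes in females (55.8% of all genes) and for 9 in males (60.6%). Over all genes, 65.7% were called in females (32.6% higher, 33.1% lower) and 64% in males (31.4% higher, 32.6% lower). Bmper was the member whose sign turned. Its interaction of tissue and sex was 1.20 ± 0.18 on the log2 scale (adjusted p = 0.00218), and the tissue difference was larger in males than in females in 4 of 4 litters. It was the only 1 of the 9 genes called for interaction, a call that 0.668% of all genes had. Over the 23 alternative analyses its adjusted p ran from 5.22e-08 to 0.011. Fst missed the threshold, with an interaction of 0.64 ± 0.14 (adjusted p = 0.0538) and the same direction in 4 of 4 litters. With the litter as a block the value for Fst was 0.64 with adjusted p = 0.0487, and Fst was called in 8 of the 23 alternatives. Without female urethra replicates 3 and 4 its adjusted p was 0.267.

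**Figure D2:**
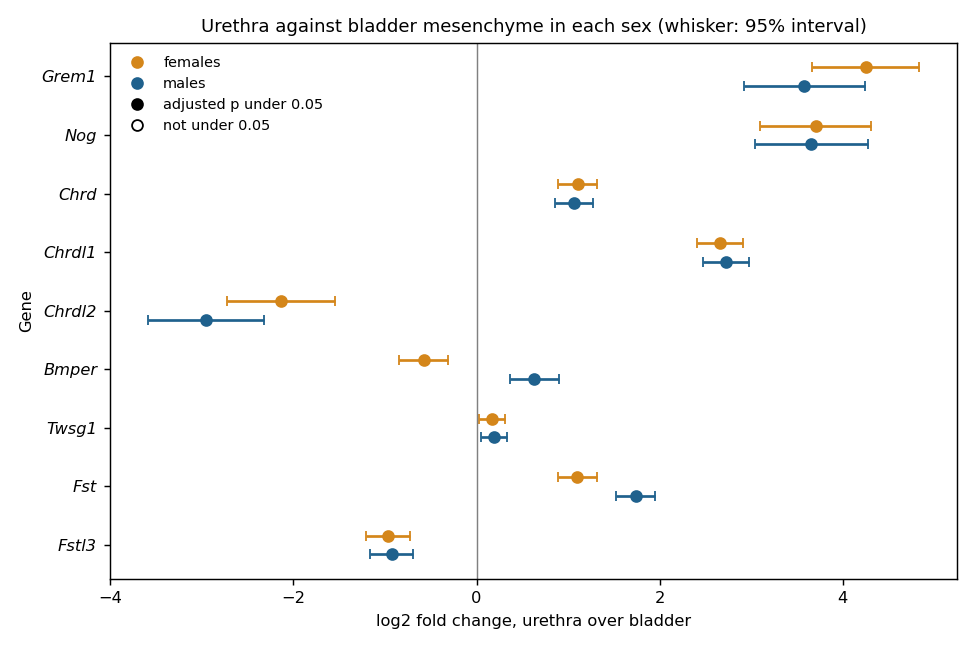
Log2 fold change of urethra over bladder (x axis) for each antagonist gene (y axis) in females and in males, with 95% intervals as whiskers and filled circles for adjusted p under 0.05. The intervals of the 2 sexes overlap for every gene but Bmper, at −0.58 in females and 0.63 in males, and Fst, at 1.10 and 1.74.

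Comparison of male with female urethra gave differences in 3 antagonist genes. Grem1 was lower in males, and Bmper and Fst were higher. These 3 of 9 stand beside 6.39% of all genes called, with 3.97% called higher and 2.42% lower in males. Grem1 ranged from 10.2 to 13.3 CPM in females and from 3.24 to 5.0 in males, so the groups did not overlap. The male minus female log2 difference was −1.52 ± 0.21, a 2.87-fold lower level in males (adjusted p = 0.000208, 4 of 4 litters). Litter by litter the female to male ratio was 3.16, 2.08, 3.33 and 3.19. Litter 2, with the highest male value, had the smallest ratio.

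Bmper differed in the opposite sense, by 0.77 ± 0.12 on the log2 scale (1.71-fold, adjusted p = 0.000973). The highest female library reached 20.3 CPM and the lowest male library 27.6 CPM. The male to female ratio of Bmper was 1.84, 1.63, 1.58 and 1.83 in litters 1 to 4. For Fst the highest female library, at 32.7 CPM, also stayed below the lowest male library, at 38.5 CPM. Its log2 difference was 0.53 ± 0.10 (1.44-fold, adjusted p = 0.00252), with ratios of 1.42, 1.55, 1.39 and 1.40 in the 4 litters. In this gene litter 2 had the highest level of each sex.

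The other 6 genes did not pass the test between the sexes in the urethra. Nog was lower in each male library than in any female library, at −0.42 ± 0.23 on the log2 scale (adjusted p = 0.355). The spread was estimated over all 4 groups, so the bladder libraries, with female bladder replicate 2 apart, also enter this error. Without single libraries the adjusted p of this edgeR test ran from 0.105 to 0.652. With Grem1, Bmper and Fst, Nog made 4 genes without overlap between the sexes, against 13.4% of all genes. Chrdl2 had a difference of −0.84 ± 0.32 with adjusted p = 0.159 and was lower in males in 4 of 4 litters. With the litter as a block it was −0.82 with adjusted p = 0.0253. The levels behind it were 13 to 71 counts per library. The remaining differences were −0.16 ± 0.10 for Chrdl1 (adjusted p = 0.416), −0.09 ± 0.07 for Twsg1 (0.531), 0.05 ± 0.11 for Fstl3 (0.878) and 0.03 ± 0.10 for Chrd (0.922). The 95% interval of Chrd was −0.18 to 0.23, and that of Twsg1 −0.23 to 0.05.

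Epithelium markers also moved with sex in the urethra. The 18 markers summed to 2103, 2065, 1166 and 747 CPM in female urethra replicates 1 to 4 and to 2485, 1959, 2145 and 2622 CPM in male urethra, with none at 0. Female urethra replicates 3 and 4 were thus the lowest. Without these 2 libraries Grem1 differed by −1.35 (adjusted p = 0.00926) and Bmper by 0.77 (0.0124), and Fst by 0.45 with its call lost (0.0783). With the epithelium level as a covariate the values were −1.26 for Grem1 (adjusted p = 0.00278), 0.73 for Bmper (0.0119) and 0.53 for Fst (0.0164). The 5 genital duct markers summed to 56.5 to 68.0 CPM in female and 31.6 to 50.2 in male urethra. They differed in direction: mean Wnt7a was 29.1 CPM in female and 8.56 in male urethra, and Pax8 6.89 and 6.34. Pax2 (5.31 and 6.99), Lhx1 (2.82 and 3.79) and Emx2 (17.9 and 18.3) were higher in males. The part of these markers' cells in the sex differences was not tested.

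In the bladder, 0 of the 9 genes differed between the sexes by edgeR's test (adjusted p under 0.05), against 0.581% of all genes, and the sexes overlapped for all 9, while 6.62% of all genes had no overlap. At an unadjusted p under 0.05 there was 1, Bmper, at −0.43 ± 0.13 (adjusted p = 0.134), lower in males in 4 of 4 litters. DESeq2 called this 1 gene, at −0.45 (adjusted p = 0.0335). The epithelium markers summed to 2208 to 4452 CPM in female and 4548 to 5453 in male bladder, and with their level as a covariate Bmper had −0.47 (adjusted p = 0.279). Grem1 had a difference of −0.85 ± 0.42 (adjusted p = 0.43) and was also lower in males in 4 of 4 litters, on 7 to 19 counts per female library and 3 to 15 per male library. The difference between its urethral and its bladder sex effect was −0.67 ± 0.49 (adjusted p = 0.826). Without male bladder replicate 3 that interaction was 0.07. For Grem1 a difference between the sex effects of the tissues was thus not detected, and the reason was not tested. Fst had −0.11 ± 0.10 in the bladder (adjusted p = 0.77), with a 95% interval of −0.33 to 0.12. The sex and the tissue comparisons share libraries, so their values are not independent.

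**Figure D3:**
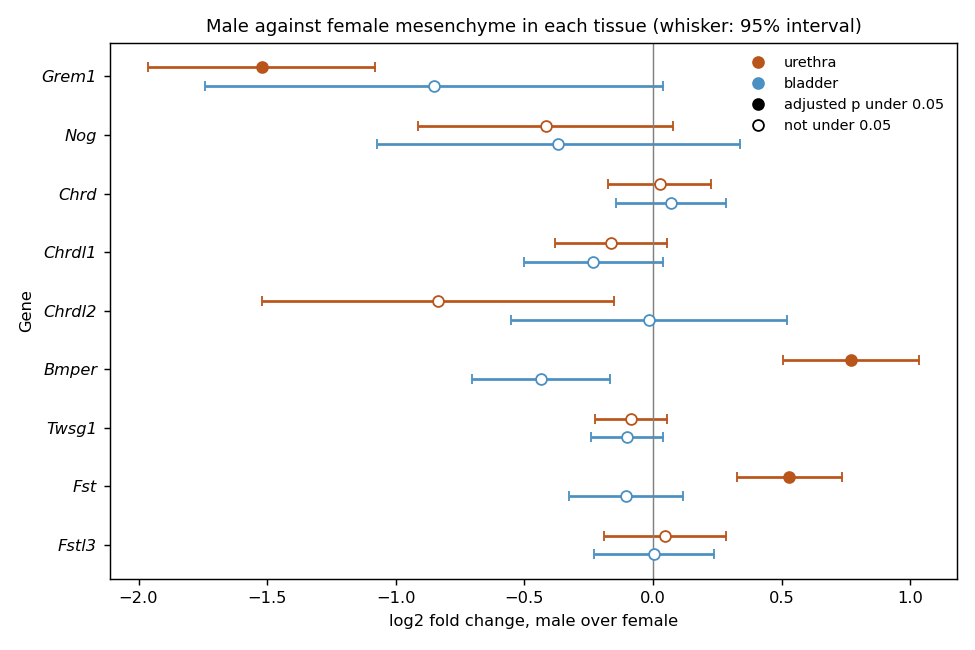
Log2 fold change of male over female (x axis) for each antagonist gene (y axis) in the urethra and in the bladder, with 95% intervals as whiskers and filled circles for adjusted p under 0.05. Only the urethral values of Grem1 (−1.52), Bmper (0.77) and Fst (0.53) are filled, and Bmper lies on opposite sides of 0 in the 2 tissues.

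Levels of different genes were compared per length, as CPM per kb of exon. In female bladder the order of the means was Twsg1 at 40.5 ± 1.99 (SD, n = 4), Fstl3 at 8.29 ± 1.43, Bmper at 5.45 ± 0.62, Chrd at 3.21 ± 0.36, Fst at 2.96 ± 0.26, Nog at 2.00 ± 1.34, Chrdl2 at 1.84 ± 0.56, Chrdl1 at 0.770 ± 0.061 and Grem1 at 0.144 ± 0.060. Neighbours from Chrd to Chrdl2 overlapped between libraries, and the others did not. In male bladder Chrdl2 and Nog changed places, with overlapping libraries, and Bmper overlapped Chrd.

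In the urethra Nog came second to Twsg1. Female urethra had Twsg1 at 45.7 ± 3.29 CPM per kb, Nog at 26.0 ± 2.94, Chrd at 6.91 ± 0.92, Fst at 6.37 ± 0.52, Chrdl1 at 4.87 ± 0.69, Fstl3 at 4.25 ± 0.52, Bmper at 3.66 ± 0.57, Grem1 at 2.80 ± 0.37 and Chrdl2 at 0.418 ± 0.151. Of these neighbours Chrd and Fst overlapped, as did each pair from Chrdl1 to Grem1. In male urethra Fst at 9.20 ± 1.26 stood above Chrd at 7.04 ± 0.27 and Bmper at 6.24 ± 0.50, with no overlap between neighbours, and Grem1 at 0.975 ± 0.179 stood below Chrdl1 at 4.35 ± 0.45.

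The 9 genes together came to 65.2 ± 2.41 CPM per kb in female bladder, 60.4 ± 3.57 in male bladder, 100.9 ± 7.60 in female urethra and 94.9 ± 3.03 in male urethra (SD, n = 4). Twsg1 made up 62.2 ± 2.08% and 62.5 ± 2.52% of this sum in female and male bladder and 45.3 ± 0.57% and 45.4 ± 0.87% in female and male urethra. Nog made up 3.09 ± 2.11% and 2.52 ± 0.80% in the bladder and 25.7 ± 1.37% and 20.5 ± 1.27% in the urethra. Fstl3, next to Twsg1 in the bladder with 12.7 ± 2.03% and 13.8 ± 1.13%, took 4.21 ± 0.45% and 4.63 ± 0.37% in the urethra. Of the 9 genes Nog made the largest part of the difference in the sum between the tissues in both sexes.

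**Figure D4:**
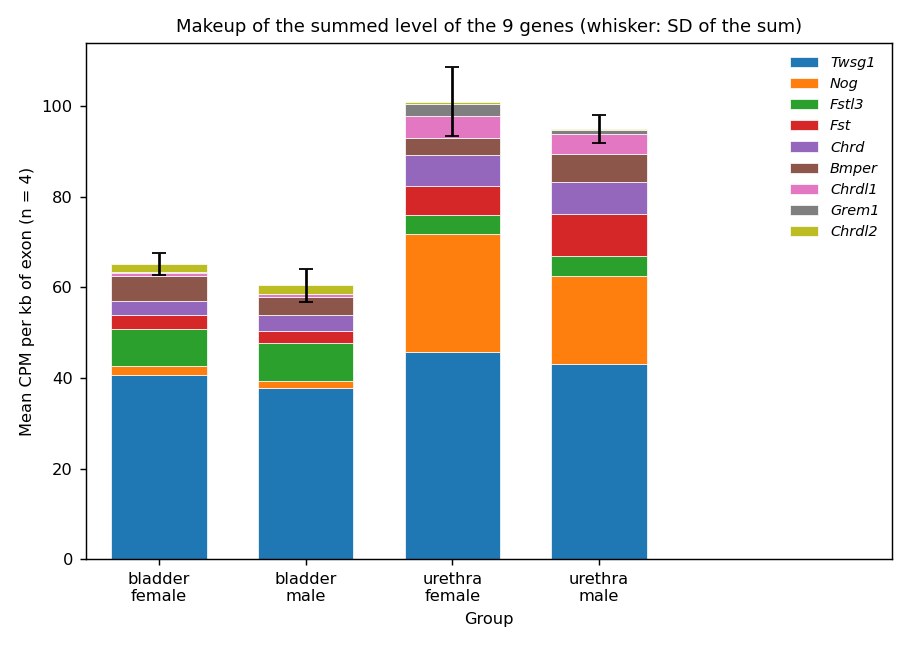
Mean level of the 9 antagonist genes stacked within each group (x axis), in CPM per kb of exon (y axis, linear, from 0), with a whisker of 1 SD of the sum (n = 4). The sum is 65.2 and 60.4 in female and male bladder and 100.9 and 94.9 in female and male urethra, and Nog takes 3.09 and 2.52% of it in the bladder against 25.7 and 20.5% in the urethra.

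The genes whose log2 CPM over the 16 libraries was most like that of Grem1 included Megf10 (Pearson r = 0.985) and Chrna4 (0.984). Those most like Chrdl2 were Gm7336 (0.974), Gm37416 (0.973) and Cdkn2c (0.973). These are descriptions over libraries that fall into 2 tissues, share litters and differ in depth by tissue.

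Other genes of the pathways were counted from 7 lists, to be read against the shares of all genes called: 36.5% higher and 38.5% lower (75% in all) in the urethra, and 3.97% higher and 2.42% lower in male against female urethra. A first list held 16 further genes of antagonists, modulators or their relatives, not all of them secreted or known antagonists, and 15 were tested. Of these, 7 passed as higher in the urethra and 3 as lower, 10 of 15 against 75% of all genes, with a median log2 difference of 0.22. Fstl5 (follistatin-like 5) was the highest at 4.13 ± 0.27 (adjusted p = 1.12e-09), on 10 to 17 counts per female and 6 to 59 per male bladder library. Sostdc1, which encodes a secreted BMP and WNT modulator, was the lowest at −1.22 ± 0.11 (adjusted p = 3.32e-08). In the urethra 1 of the 15 differed by sex: Smoc1, the gene of a secreted matrix-associated BMP inhibitor, stood at 17.3 ± 3.01 CPM in females and 40.0 ± 4.38 in males (SD, n = 4; log2 difference 1.21 ± 0.19, adjusted p = 0.000974). Cer1 was not tested for low counts.

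Another list held 5 genes of tolloid-type proteases and of proteins linked to them. Of these, 4 passed as higher in the urethra and 1 as lower (all genes 36.5% and 38.5%), with a median of 0.60. Whether their products act on chordin here was not tested. The tolloid-like gene Tll2 was highest at 2.82 ± 0.21 (adjusted p = 3.68e-09), from 1 to 7 counts per bladder library. Pcolce, the gene of a procollagen C-endopeptidase enhancer, was lowest at −0.41 ± 0.04 (adjusted p = 1.68e-07). Sfrp2, the gene of a secreted frizzled-related protein, was 418 ± 18.1 CPM in female and 682 ± 35.4 in male urethra (log2 difference 0.71 ± 0.10, adjusted p = 0.00023). Its interaction of tissue and sex was 1.05 ± 0.14 (adjusted p = 0.000651), in the same direction as that of Bmper.

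Among the ligands, 6 of 11 tested BMP and GDF genes passed as higher in the urethra and 4 as lower (median 0.63), and 3 of 5 activin-type genes were higher and 1 lower (median 0.83), beside 36.5% of all genes higher and 38.5% lower. Gdf7 was the highest BMP-type ligand gene at 4.79 ± 0.33 (adjusted p = 4.04e-09), on 1 to 32 counts per female and 7 to 50 per male bladder library. Bmp5 was the lowest at −1.36 ± 0.13 (adjusted p = 1.02e-07). Inhba, which encodes the beta A subunit of activin, the ligand bound by follistatin, was higher in the urethra by 2.07 ± 0.12 (adjusted p = 2.18e-10), and Inhbb, the beta B subunit gene, was lower, at −1.44 ± 0.17 (adjusted p = 1.06e-06). Bmp8a, Bmp10, Gdf2 and Nodal were not tested for low counts.

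By sex in the urethra, 3 of 11 BMP and GDF genes and 1 of 5 activin-type genes were lower in males and none of these 16 passed as higher, beside 2.42% of all genes lower and 3.97% higher. Gdf5, a BMP-type ligand gene, was 8.04 ± 1.16 CPM in females and 2.65 ± 0.45 in males (SD, n = 4), a log2 difference of −1.60 ± 0.17 (adjusted p = 1.19e-05), and its interaction was −1.46 ± 0.24 (adjusted p = 0.00586). Inhba was 76.3 ± 12.6 CPM in female and 41.1 ± 3.06 in male urethra (log2 difference −0.89 ± 0.16, adjusted p = 0.00227), while Fst was 29.2 ± 2.37 and 42.2 ± 5.80. The female urethra thus had more RNA of this activin subunit and less of follistatin than the male urethra.

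Receptor and co-receptor genes were higher for 9 and lower for 4 of 13 tested (median 0.50), and SMAD mediator genes were higher for 5 and lower for 1 of 6 (median 0.50), where 75% of all genes were called. The BMP co-receptor gene Hjv (hemojuvelin) was highest at 5.31 ± 0.25 (adjusted p = 1.13e-11), from 1 to 5 counts per bladder library, and Tgfbr3 (betaglycan) lowest at −1.01 ± 0.07 (adjusted p = 7.35e-10). By sex in the urethra, Bmpr1b, a type I BMP receptor gene, led the 2 receptor genes higher in males, at 0.54 ± 0.10 (adjusted p = 0.00344). Smad9 was the highest mediator gene at 1.24 ± 0.10 (adjusted p = 4.59e-09), Smad4 the lowest at −0.32 ± 0.04 (adjusted p = 5.97e-07), and Smad5 led the 2 lower in male urethra at −0.25 ± 0.06 (adjusted p = 0.00927). Acvr1c was not tested.

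Genes known as BMP targets were higher for 6 and lower for 1 of 9 (median 0.22), near the 75% called over all genes. The homeobox gene Msx1 was highest at 3.02 ± 0.14 (adjusted p = 1.21e-11) and Id2, a gene of the inhibitors of DNA binding, lowest at −0.35 ± 0.04 (adjusted p = 1.57e-06). By sex in the urethra 1 of the 9 differed, Id4, at −0.32 ± 0.09 (adjusted p = 0.0328). In male against female bladder, where 0.581% of all genes were called, the 7 lists held 1 called gene. It was Gdf10, 1 of 11 tested BMP and GDF genes, named after its values were seen, at −1.27 ± 0.20 (edgeR, adjusted p = 0.00766).

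**Figure D5:**
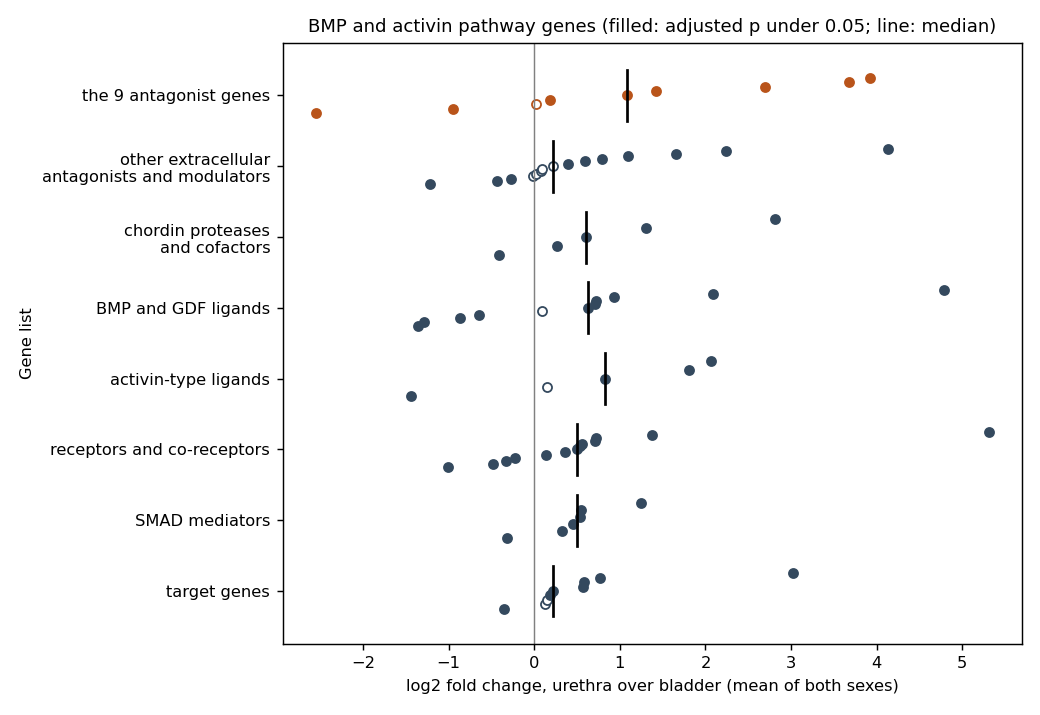
Log2 fold change of urethra over bladder, mean of both sexes (x axis), for the tested genes of the 9 antagonists and of 7 further lists (y axis), with 1 circle per gene, filled for adjusted p under 0.05, and a line at each list's median. The medians lie between 0.22 and 1.08, that of the 9 antagonists being 1.08, and each list has at least 1 gene on either side of 0.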

How the data were processed

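Per the labels' protocols, mesenchyme was freed of epithelium with trypsin and forceps, and poly(A) RNA (250 ng of total RNA as input) was made into stranded libraries and read as 100 bp paired ends. Per the submitters' processing notes, reads were aligned to GRCm38 with HISAT2 2.1.0 and counted with Subread 1.6.3. The authors deposited a table of raw counts per gene symbol with exon lengths, made with strand setting 2 per the file headers. No source used here names the GENCODE release, and the deposited table of size-factor-scaled values was not used here.

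Counts were analysed with R 4.3.3, edgeR 4.0.16 and limma 3.58.1 in 1 quasi-likelihood fit of the 4 groups (TMM scaling, filterByExpr, robust), with Benjamini-Hochberg adjustment over 18254 genes and a threshold of 0.05 for 6 comparisons. CPM are on TMM-scaled totals, log2 CPM has a prior count of 2, and CPM per kb divides by the deposited exon length. Standard errors are approximate: each is the absolute log2 fold change over the root of its F statistic. The script was tested on simulated data. DESeq2 1.42.0 was an alternative, and Python 3.11.15, pandas 2.3.3 and matplotlib 3.10.9 served for annotation and figures. Promoter windows are from RefSeq (GRCm38.p6).

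The 9 genes, the marker and pathway lists and the alternatives were chosen with earlier results of these data known. Beyond the 9 genes, each pathway list names its highest and lowest called gene between tissues and, if called, the gene with the smallest p between the sexes in the urethra. The 3 genes most like the members with the highest and the lowest tissue difference are named too, except 1 that is not reported here. Replicate numbers mark litters in the labels, so libraries are paired. Deviations from group means correlated at 0.09 to 0.41 (median 0.19, 7 of 8 pairs over 0.1) between bladder and urethra of 1 litter and sex, and at a median of 0.12 (4 of 8) between the sexes. Libraries of a group differed beyond sampling noise (chi-squared per degree of freedom 4.55 to 34.0 over 24 pairs).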

Additional observations from a re-analysis of the deposited data

Results flagged for a closer look

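Nog in female bladder replicate 2 stood at 6.76 CPM, far from 2.07, 2.73 and 2.02 CPM in the other 3 libraries of its group. The gap to its nearest neighbour was 0.849 of the group's range, above Dixon's 95% critical value for 4 libraries. Of 36 groups of a gene and 4 libraries tested, this 1 passed, and chance alone gives about 1 in 20 such groups.

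Bmper differed between the sexes in its tissue effect. The urethra minus bladder log2 difference was 1.20 larger in males than in females (edgeR interaction, adjusted p = 0.00218), with every litter lower in female urethra than bladder and higher in male urethra than bladder.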

How the results depend on the processing

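The 9 genes were tested in 6 comparisons under 23 alternatives, of which 16 leave out 1 library each. Between tissues 8 of 9 genes were called without any single library, and in the urethra between sexes 3 of 9. Scaling by library totals moved the median log2 difference of all genes by 0.14 between tissues (0.13 in females, 0.14 in males), and the share of called genes that were higher from 48.7 to 60.8% (females 49.6 to 61.1%, males 49.0 to 63.3%). In male against female bladder that share went from 42.5 to 53.3%, to 63.8% with no filter on low counts, and to between 17.1 and 53.5% without single libraries (17.1% without female bladder replicate 3, 20.2% without male bladder replicate 3, 25% without female bladder replicate 4).

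Counts of called genes moved most between the sexes. In the urethra 1167 genes were called, 545 with the epithelium covariate, 370 without female urethra replicates 3 and 4, and 674 to 1691 without single libraries (745 without female urethra replicate 3, 718 without replicate 4, 674 without male urethra replicate 4). In the bladder 106 were called, 473 by DESeq2, of which 1 was an antagonist gene, 30 with the covariate, and 40 to 174 without single libraries (40 without female bladder replicate 4, 70 without replicate 3, 66 without male bladder replicate 4, 70 without male urethra replicate 3, 174 without female bladder replicate 1). For interaction 122 were called, 274 by DESeq2, 56 without female urethra replicates 3 and 4, and 70 to 147 without single libraries (70 without male urethra replicate 2, 77 without replicate 1). The number of antagonist genes called for interaction was 2 in place of 1, with Fst added, under library totals, DESeq2, no filter, the litter block and the covariate, and ran from 1 to 2 without single libraries (2 without female bladder replicate 2, male bladder replicate 1 or female urethra replicate 2). With the litter as replicate block, the interaction of Fst had adjusted p = 0.0487 and Chrdl2 in male against female urethra −0.82 with adjusted p = 0.0253, and no other call of the 9 genes changed. Without division by length, Twsg1 made up 68.4, 68.9, 55.3 and 53.3% of the sum in the bladder of females and males and the urethra of females and males.

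Differences that changed sign had missed the test. Between sexes in the urethra Chrdl1 was 0.018 with the covariate and 0.024 without female urethra replicates 3 and 4, and Twsg1 0.0037 without them. In the bladder Chrdl2 was 0.0044 with library totals, 0.0036 with no filter and 0.19 with the covariate, and Fstl3 −0.0099 with DESeq2's size factors and −0.0103 with DESeq2. The interaction of Nog was 0.058 and that of Chrd 0.13 without female urethra replicates 3 and 4. Without single libraries, Bmper between tissues ran from −0.0078 to 0.10. In the urethra between sexes Chrd ran from −0.041 to 0.083 and Fstl3 from −0.026 to 0.094. In the bladder the ranges were −0.56 to 0.19 for Nog, −0.019 to 0.12 for Chrd, −0.15 to 0.22 for Chrdl2 and −0.10 to 0.11 for Fstl3. Interaction ranges were −0.99 to 0.068 for Grem1, −0.59 to 0.16 for Nog, −0.11 to 0.062 for Chrd, −0.0073 to 0.15 for Chrdl1, −0.049 to 0.16 for Fstl3 and −0.019 to 0.064 for Twsg1. The causes were not tested. Low counts limit Grem1 in the bladder (3 to 19 per library) and Chrdl2 in the urethra (13 to 71).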
